A study of Mus musculus with 6 samples.

Results

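The transcripts of genes whose proteins are known to bind 14-3-3 proteins were followed in single-cell RNA-Seq of mouse islets: Bad, Bax, Foxo1, Foxo3, Braf, Yap1, Wwtr1, Tsc2, and Mlxipl. They were found by gene symbol and make up 9 of the 32285 genes counted, and each symbol matched 1 gene. Islets came from WT mice (3 libraries) and from β14-3-3ζ–KO mice (3 libraries), aged 12–14 weeks and of the C57/BL6 strain. The KO mice carried Ins1-CreThor, which expresses Cre recombinase from the insulin gene Ins1, and Ywhaz alleles with loxP sites around exon 4, so that deletion is directed to β cells and not to the rest of the islet. The WT littermates also carried Cre, so Cre itself was common to both groups. After an overnight recovery the islets were dispersed, dead cells were removed, and RNA molecules were counted by unique molecular identifier (UMI) in droplets. With 3 mice and 3 libraries per genotype, a library stands for 1 mouse, and the p-values measure the spread between these libraries.

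14-3-3 proteins are small dimeric adaptors that bind phosphorylated serine or threonine residues in their partners. Binding commonly holds a partner in the cytosol, away from the mitochondrion in the case of BAD and BAX, or away from the nucleus in the case of the FOXO factors, YAP, TAZ, and the glucose-responsive factor ChREBP. This regulation acts on proteins after they are made, and the measurements here are of transcripts.

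Cells were placed in 5 classes. β cells were all cells in which Ins1 and Ins2 made up at least 25% of UMIs (13972 cells and 225096302 UMIs). α cell–like cells (782), δ cell–like cells (743), endothelial cell–like cells (985), and stellate cell–like cells (285) came from clusters with under 25% insulin UMIs that carried the markers of these types, and the smallest class in a library was 19 stellate cell–like cells in WT library 3. Summed markers of each class's own type were detected in every library, at 186479 to 235267 CPM (UMIs of a gene per 1000000 UMIs of the class in a library) in α cell–like cells, 77803 to 100840 CPM in δ cell–like cells, 11077 to 16092 CPM in endothelial cell–like cells, and 1948 to 5848 CPM in stellate cell–like cells. The same markers had named the clusters, so these sums describe the classes and do not test their names. The 8 β cell markers summed to 12079 to 100662 CPM in endothelial cell–like and 6584 to 79762 CPM in stellate cell–like cells. The β class also held shallow barcodes. Of its cells, 7678 had fewer than 5000 UMIs, and they gave 0.133% (WT library 1) to 22.7% (WT library 2) of a library's β cell UMIs. Only 32.8% of the β class lay in clusters named by β cell markers, but these cells held 69.8% of its UMIs. KO library 2 stood apart by B cell transcripts in its β class (154 CPM summed over 3 markers, against 4.82 to 14.8 CPM in the other libraries). Pairs of libraries shared 7 to 27 cell barcodes. Hormone transcripts made up 44.8% to 54.3% of β cell UMIs but 0.776% to 10.6% in endothelial cell–like and stellate cell–like cells, which lowers the CPM of every other gene in β cells. Levels between cell types are therefore also given with hormone UMIs left out of the total (non-hormone CPM).

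Ywhaz, the gene of 14-3-3ζ, was at 118, 161, and 157 CPM in WT β cells and at 20.7, 29.8, and 21.2 CPM in KO β cells. Its log2 fold change was −2.62 (SE 0.181, adjusted p = 0.00445, edgeR's quasi-likelihood test and Benjamini-Hochberg adjustment), and the KO libraries lay far below the WT libraries. The 3′ assay counts transcript ends and does not read the deleted exon itself. In the other 4 classes the log2 fold change of Ywhaz was −0.18 to 0.00024, and none was called.

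No partner gene passed the test between WT and KO β cells. Of the 9, 7 passed the filter on low values, a UMI in over 15% of the cells of either genotype, and 0 of these 7 were called at an FDR under 0.05 with an absolute log2 fold change above 0.1. Over all 7090 genes tested, 0.0141% were called, which was Ywhaz alone. No member had an unadjusted p under 0.05 in edgeR, a level reached by 3.19% of all genes, and DESeq2 called 0 of the 7 members as well while it called 7 genes in all. In an edgeR fit with the replicate number of the libraries as a block, 695 of the 7090 genes had an unadjusted p under 0.05. No member did, and the lowest p of a member in that edgeR fit was 0.0609, for Foxo3. Log2 fold changes of the 7 members ran from −0.14 to 0.15, with a median of 0.022 against 0.0042 over all genes. The widest 95% intervals reached −0.35 on the lower side and 0.47 on the upper side, so changes of the size seen for Ywhaz lay outside the interval of every member tested. The 7 members had between 3992 and 25548 UMIs each in β cells. The KO β class kept cells with a Ywhaz UMI, 26.6% of its cells, whereas the paper removed KO β cells in which deletion was incomplete. With the KO cells holding a Ywhaz UMI left out, 0 of the 7 members tested were called.

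**Figure D1:**
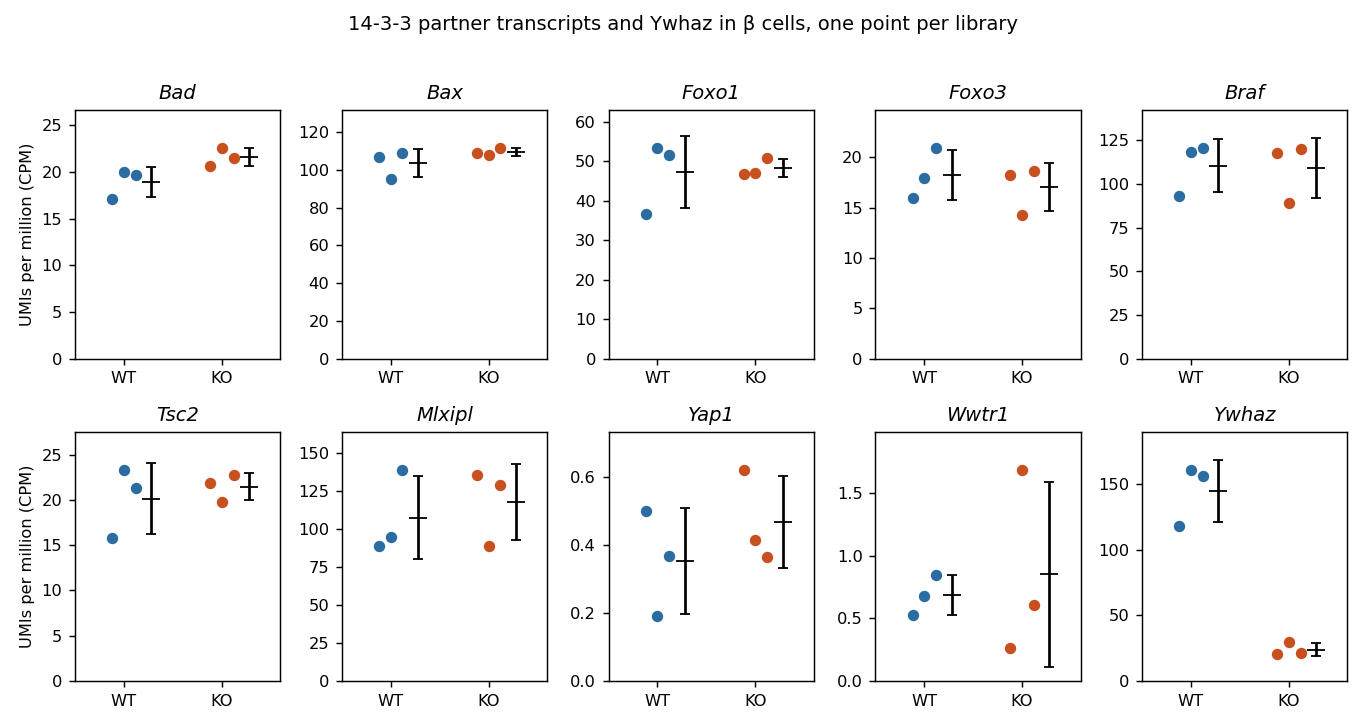
CPM (linear axes from 0) of the 9 partner genes and Ywhaz in β cells, with 1 point per library and the mean ± SD of the 3 WT and the 3 KO libraries. Ywhaz separates by genotype, whereas among the partners WT and KO libraries overlap for every gene but Bad.

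Bad and Bax belong to the BCL-2 family: BAD binds and neutralizes survival members of the family, and BAX forms pores in the outer mitochondrial membrane. Bad was at 17.1, 20.02, and 19.6 CPM in WT β cells and at 20.7, 22.6, and 21.5 CPM in KO β cells. All 3 KO libraries were above all 3 WT libraries, and Bad was the only 1 of the 7 members tested whose groups did not overlap in either direction, beside 4.7% of all genes tested in β cells. Of those 333 genes, 272 had KO above WT and 61 had KO below. The log2 fold change of Bad was 0.15 (SE 0.0876, unadjusted p = 0.129, adjusted p = 0.941, edgeR), with a 95% interval of −0.054 to 0.35. Bad was at 36.3 to 37.5 non-hormone CPM in WT and at 38.8 to 42.3 non-hormone CPM in KO. Bax was at 107, 95.2, and 109 CPM in WT and at 109, 108, and 111 CPM in KO. Its libraries overlapped in part, with WT library 2 lowest, and on this scale KO was higher in 3 of 3 pairs of the same replicate number. Hormone transcripts made up 54.3% of β cell UMIs in WT library 1, the highest share of the 6 libraries. With hormone UMIs left out, Bax was at 234, 175, and 201 non-hormone CPM in WT and at 205, 202, and 202 non-hormone CPM in KO. WT library 1 was then highest, and the KO libraries lay within the WT range. The log2 fold change was 0.022 (95% interval −0.26 to 0.31). This estimate turned negative without WT library 2 (−0.084), WT library 3 (−0.0069), or KO library 2 (−0.015).

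Among β cells with at least 5000 UMIs, each thinned to 5000 UMIs (2523 of 7042 WT cells and 3771 of 6930 KO cells), Bax was found in 35.3%, 34.3%, and 36.0% of WT cells and in 38.3%, 42.2%, and 40.5% of KO cells. All KO libraries were higher, and the 2-sided exact permutation p was 0.1, the smallest that 3 against 3 libraries can give. The 5000 UMIs of a cell include its hormone UMIs, which were not left out here. For the other 8 members p was 0.2 to 1 in the same exact test. In expected shares at 5000 UMIs, which need no random draw and were added after seeing the data, groups did not overlap for 2 of the 7 members that passed the filter, Bax and Bad, beside 7.11% of all genes tested. Of those 504 genes, 450 had KO above WT and 54 had KO below, so KO above, as for Bax and Bad, was the common direction. The expected share of Bax was 36.5%, 34.5%, and 36.95% in WT and 38.0%, 40.9%, and 39.4% in KO, and that of Bad 8.17%, 9.43%, and 8.92% in WT and 9.44%, 10.1%, and 10.1% in KO. Thinned to 2000 UMIs, the mean shares of Bax were 18.1% ± 0.573 in WT and 19.4% ± 0.165 in KO (SD, n = 3 each). Without thinning they were 56.8% in both genotypes. For Bad the mean share at 2000 UMIs was lower in KO, at 4.07% ± 0.51 in WT and 3.64% ± 0.21 in KO. Without thinning it was 28.7% in WT and 25.9% in KO. Outside β cells the exact test at 5000 UMIs also gave p = 0.1, with KO higher, for 3 members. Bax was in 75.0%, 78.3%, and 78.3% of WT and 78.5%, 81.6%, and 82.4% of KO endothelial cell–like cells. Yap1 was in 12.0%, 7.81%, and 9.09% of WT and 22.7%, 14.9%, and 27.6% of KO stellate cell–like cells. Wwtr1, near 0, was in 0% of WT and 0.654% to 0.962% of KO α cell–like cells. Shares over all genes were not computed in these classes.

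FOXO1 and FOXO3 are forkhead transcription factors that insulin signaling keeps out of the nucleus, and FOXO1 is known in β cells for its part in identity and stress responses. Foxo1 was at 36.7, 53.3, and 51.7 CPM in WT and at 46.8, 47.0, and 50.9 CPM in KO β cells. WT library 1 was the lowest of the 6, and the KO libraries lay within the WT range, with a log2 fold change of 0.0015 (95% interval −0.18 to 0.19). Foxo3 was at 15.98, 17.9, and 20.9 CPM in WT and at 18.2, 14.3, and 18.7 CPM in KO, with KO library 2 lowest and WT library 3 highest. Its log2 fold change of −0.14 had a 95% interval of −0.35 to 0.0715 (unadjusted p = 0.164, adjusted p = 0.941, edgeR).

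BRAF is the kinase at the head of the MEK-ERK cascade, and 14-3-3 dimers hold it in its inactive or active form. Braf was at 93.0, 118, and 121 CPM in WT and at 118, 89.3, and 120 CPM in KO β cells. On this scale 1 library of each genotype was low, WT library 1 and KO library 2, and the log2 fold change was −0.064 (95% interval −0.27 to 0.15). With hormone UMIs left out, Braf was at 204, 217, and 223 non-hormone CPM in WT and at 221, 167, and 217 non-hormone CPM in KO. KO library 2 alone then stood apart. TSC2 (tuberin) restrains mTORC1, the growth-promoting kinase complex. Tsc2 was at 15.8, 23.3, and 21.3 CPM in WT and at 21.8, 19.8, and 22.7 CPM in KO, again with WT library 1 lowest and with overlapping groups. The log2 fold change was 0.059 (95% interval −0.12 to 0.24).

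Mlxipl encodes ChREBP, which drives glycolytic and lipogenic genes when glucose is high. It was at 88.6, 94.7, and 139 CPM in WT and at 135, 88.8, and 129 CPM in KO β cells. Libraries lay either between 88.6 and 94.7 CPM or between 129 and 139 CPM, with both levels present in both genotypes, so the spread within a genotype exceeded the difference between genotypes. Its log2 fold change of 0.090 had the widest interval of the members tested in β cells (−0.29 to 0.47), and it turned negative without WT library 2 (−0.028) or KO library 1 (−0.016).

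Yap1 and Wwtr1 encode YAP and TAZ, the coactivators that the Hippo pathway holds in the cytosol through 14-3-3 and that drive TEAD target genes when nuclear. Neither passed the filter in β cells. Yap1 had 93 UMIs in all β cells, at 0.500, 0.190, and 0.368 CPM in WT and at 0.619, 0.414, and 0.365 CPM in KO. Wwtr1 had 167 UMIs, at 0.528, 0.677, and 0.850 CPM in WT and at 0.262, 1.69, and 0.608 CPM in KO. The groups overlapped for both genes, and KO library 2 was highest for Wwtr1. Under a count filter that keeps them (filterByExpr), the log2 fold changes were 0.33 (SE 0.472) for Yap1 and 0.30 (SE 0.634) for Wwtr1, and neither was called.

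Outside the β class, to which the deletion is directed, no partner gene passed the test either. Of 8906 genes tested in the α, 9691 in the δ, 7353 in the endothelial, and 8317 in the stellate class, edgeR called 0 (0%) in each, and DESeq2 called 1 gene, which was no member, in endothelial cell–like cells. Unadjusted p under 0.05 was reached by 3.75%, 3.51%, 3.2%, and 2.01% of all genes in these 4 classes and by no member in any of them. The outermost bounds of the 95% intervals were −0.73 and 0.60 over the 7 members tested in α cell–like cells, −0.52 and 0.35 over 7 in δ cell–like, −0.48 and 0.51 over 8 in endothelial cell–like, and −1.64 and 2.04 over 9 in stellate cell–like cells.

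**Figure D2:**
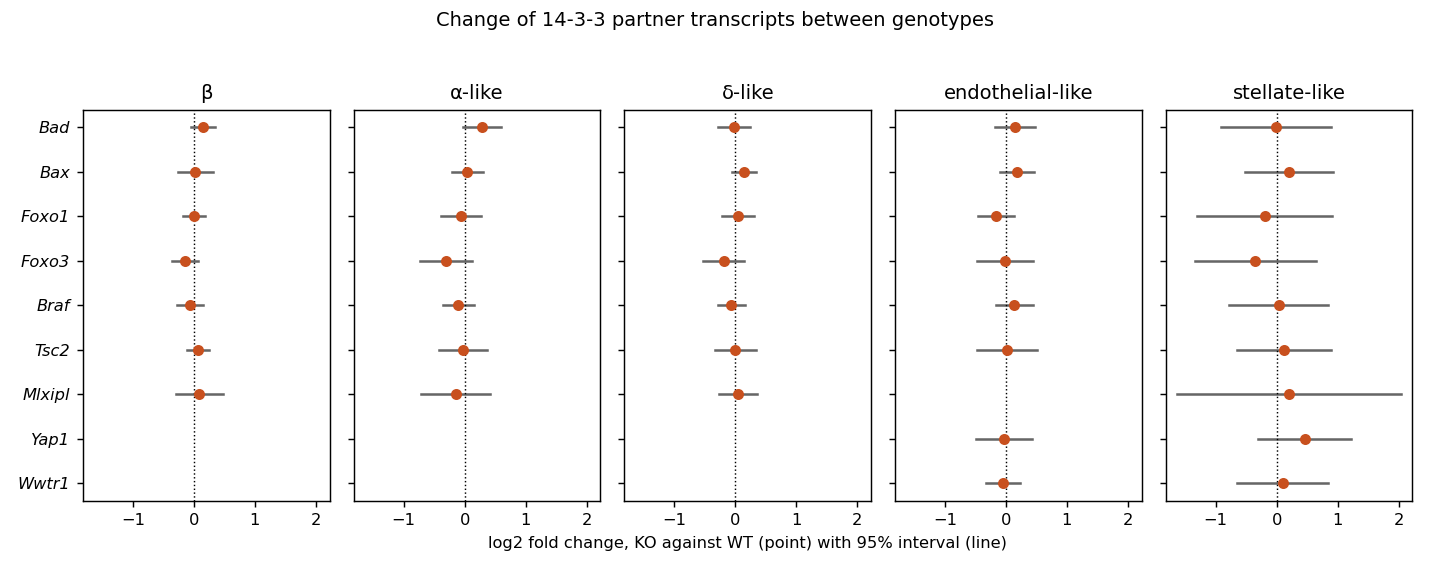
Log2 fold change of each partner gene, KO against WT, with its 95% interval from edgeR's quasi-likelihood fit (3 libraries per genotype) in the 5 cell classes, on a common linear axis. All intervals include 0, and they are widest in stellate cell–like cells. Genes are shown where they passed the filter on low values, which left out Yap1 and Wwtr1 in the β, α, and δ classes and Mlxipl in endothelial cell–like cells.

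Bad was separated by genotype in α cell–like cells too, at 31.9, 28.2, and 30.5 CPM in WT and at 36.7, 38.0, and 34.1 CPM in KO. All KO libraries were above all WT libraries, for only 1 of 7 members the groups did not overlap, and the same held for 9.16% of all genes tested there. The log2 fold change was 0.29 (95% interval −0.029 to 0.60, unadjusted p = 0.0716, edgeR). α Cell–like and β cells came from the same 6 libraries, so these are not independent observations. In δ cell–like cells Bad did not follow this pattern, at 38.4, 35.7, and 33.3 CPM in WT and at 35.6, 36.4, and 32.6 CPM in KO. There Bax was the only separated member of 7, at 99.1, 102, and 99.1 CPM in WT and at 108, 106, and 112 CPM in KO, beside 8.61% of all genes. Its log2 fold change was 0.14 (95% interval −0.052 to 0.34, unadjusted p = 0.14, edgeR). In endothelial cell–like cells 0 of 8 members and in stellate cell–like cells 0 of 9 members had groups that did not overlap in CPM, beside 8.54% and 6.56% of all genes.

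The log2 fold change of Foxo3 was −0.14 in β, −0.31 in α cell–like, −0.19 in δ cell–like, −0.020 in endothelial cell–like, and −0.35 in stellate cell–like cells. That of Bax was 0.022, 0.047, 0.14, 0.18, and 0.20 in the same order. None of these was called, and the classes share their 6 libraries. The estimate of Foxo3 moved above 0 without WT library 1 in δ cell–like (0.010) and stellate cell–like cells (0.17), and without WT library 3 (0.11) or KO library 2 (0.0046) in endothelial cell–like cells. Yap1 in stellate cell–like cells was at 43.5, 28.1, and 16.7 CPM in WT and at 44.2, 36.6, and 42.0 CPM in KO. The groups overlapped, KO was higher in 3 of 3 pairs of the same number, and the log2 fold change of 0.46 had a 95% interval of −0.30 to 1.23. Wwtr1 in endothelial cell–like cells, its most abundant site, was at 649, 579, and 656 CPM in WT and at 634, 478, and 634 CPM in KO, with KO library 2 low, KO higher in 0 of 3 pairs of the same number, and a log2 fold change of −0.049 (95% interval −0.32 to 0.23).

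Whether the effect of genotype differed between β cells and another class was tested with an interaction term in limma-voom. Called terms made up 0.0117%, 0.0105%, 0.012%, and 0.0116% of genes for α cell–like, δ cell–like, endothelial cell–like, and stellate cell–like cells, each of them Ywhaz, and 0 of the 7, 7, 9, and 9 members tested were called. The lowest unadjusted p of a member was 0.14, for Foxo1 in endothelial cell–like cells (log2 difference −0.20, SE 0.126, limma).

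Between cell types several partner genes differed, and the differences were largest for Wwtr1 and Yap1. Their promoter windows are shown because both genes were high in the same classes, endothelial cell–like and stellate cell–like cells, and near 0 in β cells. Each window runs from 250 bases before to 50 bases after a transcript start (RefSeq, GRCm38.p6), written on the strand of the gene. The Wwtr1 window is at chr3:57575861-57576160 and the Yap1 window at chr9:8004547-8004846, both on the minus strand, with capitals marking the TEAD motif GGAATG and the E box CACGTG.
Wwtr1: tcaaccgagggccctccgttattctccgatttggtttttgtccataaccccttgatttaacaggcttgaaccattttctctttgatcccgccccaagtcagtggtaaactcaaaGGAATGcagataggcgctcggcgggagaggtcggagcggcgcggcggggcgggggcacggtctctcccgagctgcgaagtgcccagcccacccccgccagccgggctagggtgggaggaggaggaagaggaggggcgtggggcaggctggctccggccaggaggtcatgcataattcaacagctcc
Yap1: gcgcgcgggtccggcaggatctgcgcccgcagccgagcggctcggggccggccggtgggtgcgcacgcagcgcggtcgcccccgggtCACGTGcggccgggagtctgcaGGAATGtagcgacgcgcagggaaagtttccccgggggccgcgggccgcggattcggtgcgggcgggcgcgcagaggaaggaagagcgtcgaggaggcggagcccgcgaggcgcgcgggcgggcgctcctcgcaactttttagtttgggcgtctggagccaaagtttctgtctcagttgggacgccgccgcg
Both windows held 1 TEAD motif, in the forward sense, 136 bases before the start in Wwtr1 and 141 bases before it in Yap1, and Yap1 also held an E box. A second Wwtr1 start has an overlapping window (chr3:57575827-57576126) with the same motif. Among the other members the TEAD motif was found only in the window of Foxo3, 2 times, and Foxo3 was not called in endothelial cell–like or stellate cell–like cells. The E box was also found 2 times in the window of Bax and 1 time in that of 1 Mlxipl start. GGAATG or its reverse complement CATTCC was found in 14.7% of 32851 promoter windows of this length, CACGTG, which is its own reverse complement, in 7.15%, and the forkhead motif GTAAACA or TGTTTAC in 3.65%. The E box and TEAD letters do not overlap one another. A match describes the letters of the window and not a bound site. Whether the motif has a part in the levels of these genes was not tested.

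Wwtr1 was at 604.9 ± 67.7 CPM in endothelial cell–like cells, at 119 ± 33.1 CPM in stellate cell–like cells, whereas β cells held 0.768 ± 0.489 CPM (SD, n = 6 libraries each). In δ cell–like cells it was at 0.677 ± 0.495 CPM (10 UMIs) and in α cell–like cells at 0.624 ± 0.349 CPM (9 UMIs). The first 3 of these ranges did not overlap, whereas β, δ cell–like, and α cell–like cells did not differ beyond their spread. Relative to β cells, the log2 difference was 8.94 in endothelial cell–like cells (95% interval 8.13 to 9.74, adjusted p = 3.99e-08) and 6.70 in stellate cell–like cells (5.79 to 7.62), both called by edgeR with the library as a block. Wwtr1 and Yap1 passed the filter in these fits through the non-endocrine class alone. With each cell thinned to 5000 UMIs, Wwtr1 was found in 91.6% of endothelial cell–like, 41.3% of stellate cell–like, and 0.325% of β cells (mean of 6 libraries; 93.9%, 61.3%, and 0.957% without thinning). Beside this, the Wwtr1 level of β cells was a median of 0.107% of the endothelial cell–like level (range 0.0413% to 0.352%). The 6 endothelial markers Pecam1, Cdh5, Kdr, Plvap, Esm1, and Flt1 had medians of 0.0444% to 0.139% by the same measure, and KO library 2 was highest for Wwtr1 and for each of the 6. Their part in the Wwtr1 UMIs of β cells was not tested.

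Yap1 was at 35.4 ± 6.64 CPM in endothelial cell–like and 35.2 ± 10.9 CPM in stellate cell–like cells, which overlapped. It was at 2.91 ± 1.67 CPM in δ cell–like, 1.84 ± 1.12 CPM in α cell–like, and 0.409 ± 0.144 CPM in β cells, each overlapping the next. The log2 difference from β cells was 5.67 in endothelial cell–like (95% interval 5.09 to 6.24) and 5.82 in stellate cell–like cells (5.14 to 6.51, adjusted p = 1.66e-07, edgeR). In the α and δ classes Yap1 was below the filter. With filterByExpr it was called above β cells in both, by 1.71 (SE 0.404, adjusted p = 0.00172, edgeR) and by 2.14 (SE 0.372, adjusted p = 0.000124, edgeR), whereas Wwtr1 was not called (−0.78 and −0.74). Unlike Wwtr1, the Yap1 level of β cells relative to endothelial cell–like cells, a median of 1.26% (0.473% to 1.67%), was above that of all 6 endothelial markers in every library. The same ratio was 5.45% for the α and 8.45% for the δ class, where none of the 6 markers passed a median of 0.22%. Relative to stellate cell–like cells, Yap1 had medians of 1.14% in the β, 5.31% in the α, and 6.97% in the δ class. Of the stellate markers, Col1a2 had the highest medians, at 0.139% in the β, 1.59% (0.970% to 60.2%) in the α, and 0.177% in the δ class. The part of transcripts from other cells in these Yap1 UMIs was not tested.

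**Figure D3:**
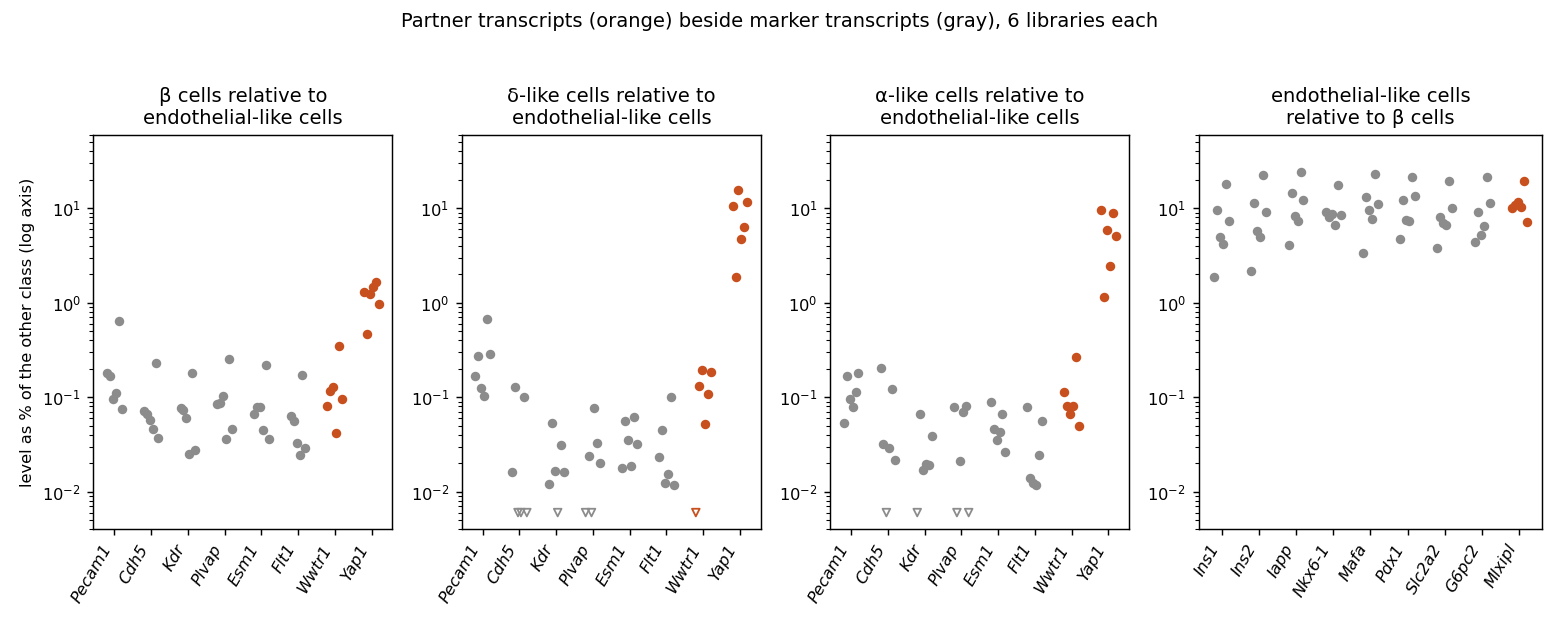
Level of each gene in 1 cell class as a percentage of its level in another (log axis), with 1 point per library, partner genes in orange and cell type markers in gray; open triangles mark libraries at 0. Wwtr1 lies among the endothelial markers in β cells, Yap1 lies above them in the 3 endocrine classes, and Mlxipl in endothelial cell–like cells has a median of 10.6%, beside 6.15% to 10.4% for the β cell markers.

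Mlxipl had the reverse distribution and belonged to β and δ cell–like cells. It was at 115 ± 21.7 CPM in δ cell–like and 112 ± 24.1 CPM in β cells (SD, n = 6), which overlapped, and at 23.9 ± 8.99 CPM in α cell–like, 16.5 ± 13.5 CPM in stellate cell–like, and 12.7 ± 3.76 CPM in endothelial cell–like cells. Without hormone UMIs the order of the first pair turned, with 213 ± 40.0 non-hormone CPM in β and 153 ± 27.3 non-hormone CPM in δ cell–like cells, and their ranges still overlapped. The edgeR fit, whose TMM scaling sets the classes to a common center, gave −0.52 for δ cell–like against β cells (95% interval −0.73 to −0.32), which did not reach the 1 log2 unit required for a call. Mlxipl was called lower in α cell–like cells (−2.58, adjusted p = 5.29e-11), in endothelial cell–like cells (−3.86), and in stellate cell–like cells (−3.61). It was the only member of 7 called between α cell–like and β cells, where 11.6% of genes were called, 5.48% higher and 6.13% lower. Thinned to 5000 UMIs, Mlxipl was found in 39.8% of β, 40.5% of δ cell–like, and 9.49% of α cell–like cells (50.0%, 78.0%, and 27.7% without thinning).

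The Mlxipl level of α cell–like cells was a median of 19.8% of that of β cells, beside 5.86% for Ins1 to 19.9% for Nkx6-1 among 8 β cell markers. In endothelial cell–like cells the value was 10.6%, beside 6.15% to 10.4% for the same markers, and in stellate cell–like cells 12.9%, beside 5.80% to 12.2%. The part of β cell transcripts in the Mlxipl UMIs of these classes was not tested. RefSeq gives Mlxipl 2 starts, at chr5:135089640-135089939 and chr5:135106641-135106940 on the plus strand, and their windows are shown because ChREBP and its partner bind E box–like elements.
Mlxipl upstream start: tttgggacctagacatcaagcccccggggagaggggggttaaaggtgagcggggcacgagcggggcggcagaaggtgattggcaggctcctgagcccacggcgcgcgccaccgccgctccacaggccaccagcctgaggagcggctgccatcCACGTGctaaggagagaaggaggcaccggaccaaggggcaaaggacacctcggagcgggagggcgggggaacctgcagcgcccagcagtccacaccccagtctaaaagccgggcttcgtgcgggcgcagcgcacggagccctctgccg
Mlxipl downstream start: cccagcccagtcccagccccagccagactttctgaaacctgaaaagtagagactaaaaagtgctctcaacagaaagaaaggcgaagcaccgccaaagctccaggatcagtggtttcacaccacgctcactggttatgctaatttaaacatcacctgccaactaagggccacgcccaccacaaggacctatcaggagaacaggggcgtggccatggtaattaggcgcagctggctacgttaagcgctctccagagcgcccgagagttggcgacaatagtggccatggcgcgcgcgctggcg
CACGTG, in capitals, was found 98 bases before the upstream start, and none of the E box, TEAD, and forkhead motifs was in the downstream window on either strand.

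Braf was highest in endocrine cells. It was at 117 ± 12.4 CPM in δ cell–like, 112 ± 10.6 CPM in α cell–like, and 110 ± 14.5 CPM in β cells, which overlapped, and at 66.4 ± 6.38 CPM in endothelial cell–like and 44.7 ± 14.4 CPM in stellate cell–like cells. It was called lower than in β cells in endothelial cell–like (−1.47, 95% interval −1.63 to −1.31) and stellate cell–like cells (−1.94, 95% interval −2.26 to −1.62). Tsc2 was at 24.8 ± 2.02 CPM in δ cell–like, 20.8 ± 2.74 CPM in β, and 17.1 ± 2.14 CPM in endothelial cell–like cells, the highest, middle, and lowest of 5 levels of which each overlapped the next. Without hormone UMIs β cells were highest (39.3 ± 3.04 non-hormone CPM) and did not overlap endothelial cell–like cells (17.9 ± 2.28 non-hormone CPM). On the fitted scale it was called lower in endothelial cell–like cells (−1.04, 95% interval −1.26 to −0.83). That call was lost without KO library 1 (−0.98), with filterByExpr (−0.90), and against the clusters named β alone (−0.91).

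Bax was at 362 ± 28.9 CPM in endothelial cell–like, 252 ± 78.3 CPM in stellate cell–like, and 151 ± 20.6 CPM in α cell–like cells. In β cells it was at 106 ± 5.74 CPM, and in δ cell–like cells at 104 ± 5.08 CPM. The last 2 levels overlapped on this scale but not without hormone UMIs, where β cells (203 ± 18.6 non-hormone CPM) were above δ cell–like cells (139 ± 7.74 non-hormone CPM). Bax was called higher in endothelial cell–like than in β cells (1.01, 95% interval 0.81 to 1.20), a value at the limit for a call that fell below it without WT library 2 (0.96), KO library 1 (0.99), or KO library 2 (0.95) and with hormone genes left out of the totals (0.98). Bad was at 58.6 ± 18.9 CPM in stellate cell–like, 48.7 ± 4.19 CPM in endothelial cell–like, 35.3 ± 2.10 CPM in δ cell–like, 33.2 ± 3.73 CPM in α cell–like, and 20.2 ± 1.86 CPM in β cells. β Cells were lowest with no overlap, but without hormone UMIs they overlapped α cell–like cells (38.4 ± 2.17 against 46.9 ± 5.55 non-hormone CPM). The log2 difference of Bad in stellate cell–like cells, 0.90 (95% interval 0.47 to 1.33), was under the limit and passed it without WT library 1 (1.01) or KO library 1 (1.04) and against the clusters named β alone (1.07).

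Foxo1 was highest in endothelial cell–like cells, at 100.4 ± 13.3 CPM, with no overlap with the δ, β, and α classes. Its lowest endothelial cell–like library (81.7 CPM) was below its highest stellate cell–like library (83.4 CPM). It was at 56.7 ± 6.60 CPM in δ cell–like, 47.7 ± 5.99 CPM in β, 39.8 ± 4.28 CPM in α cell–like, and 39.1 ± 22.2 CPM in stellate cell–like cells. Without hormone UMIs β cells came next (90.4 ± 6.31 non-hormone CPM) and overlapped endothelial cell–like cells (105 ± 12.8 non-hormone CPM). On the fitted scale Foxo1 was 0.32 higher in endothelial cell–like than in β cells, which is under the limit for a call, and it was called lower in stellate cell–like cells (−1.06, 95% interval −1.52 to −0.60). The latter call was lost without WT library 2 (−0.92) and against the clusters named β alone (−0.97), and WT library 3, with 19 cells, held the highest stellate cell–like value (83.4 CPM, against 24.9 to 38.4 CPM in the others). Foxo3 was highest in δ cell–like cells (31.9 ± 5.98 CPM) and lowest in β cells (17.7 ± 2.28 CPM), with each level overlapping the next. Without hormone UMIs δ cell–like cells were still highest (42.5 ± 7.40 non-hormone CPM), β cells came next (33.6 ± 3.85 non-hormone CPM), and endothelial cell–like cells were lowest (20.5 ± 2.36 non-hormone CPM). Foxo3 was not called in any class.

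In all, 0 of 7 members were called between δ cell–like and β cells, where 11% of all genes were called (7.17% higher and 3.85% lower). Between endothelial cell–like and β cells 6 of 9 members were called, beside 44.1% of all genes (21.1% higher and 22.9% lower), and between stellate cell–like and β cells 5 of 9, beside 40.1% (20.5% higher and 19.5% lower). Of the 6 in endothelial cell–like cells, Wwtr1, Yap1, and Bax were higher and Mlxipl, Braf, and Tsc2 lower. Of the 5 in stellate cell–like cells, Wwtr1 and Yap1 were higher and Mlxipl, Braf, and Foxo1 lower. Wwtr1 and Yap1 could enter these counts only by being high in the class compared, so the counts are not read against the percentages for all genes. With filterByExpr the members called were 2 of 9 in α cell–like, 1 of 9 in δ cell–like, 5 of 9 in endothelial cell–like, and 5 of 9 in stellate cell–like cells, beside 19.7%, 19%, 48.8%, and 40.6% of all genes.

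**Figure D4:**
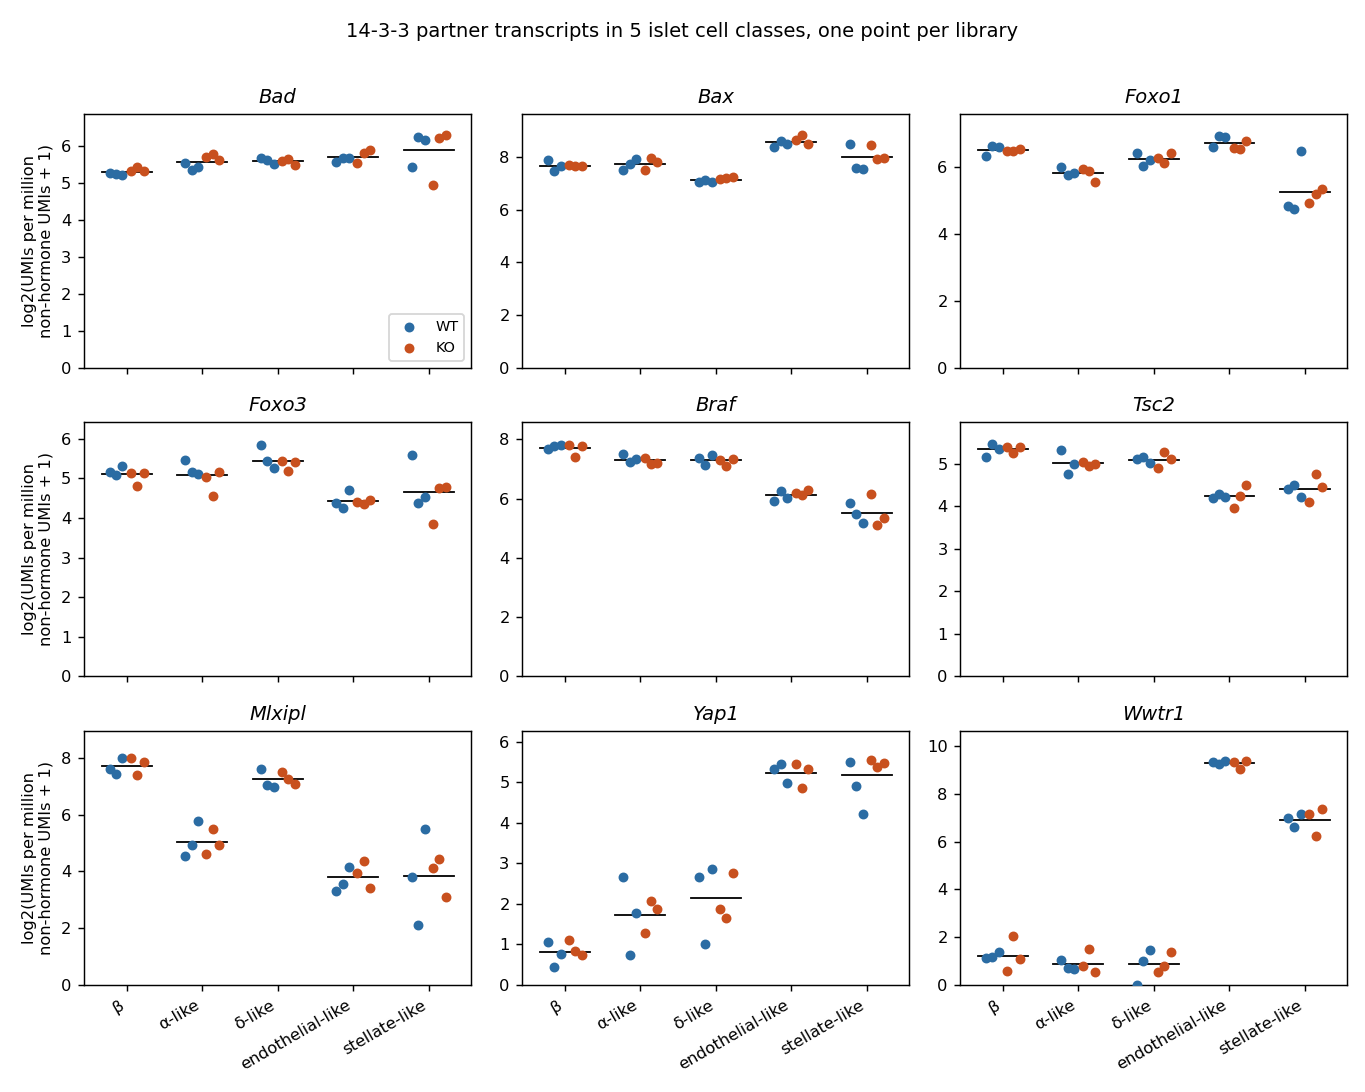
Level of each partner gene in 5 cell classes as log2(non-hormone CPM + 1), with 1 point per library (3 WT and 3 KO) and the mean of the 6 as a line. Wwtr1 and Yap1 are high in endothelial cell–like and stellate cell–like cells, and Mlxipl in β and δ cell–like cells. WT and KO points do not overlap for Bad in β and α cell–like cells and for Bax in δ cell–like cells.

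Likeness of pattern was described by Pearson's r of log2(CPM + 1) over the 30 sums of 5 classes and 6 libraries, in which sums of a library share its preparation and depth. The genes closest to Mlxipl were Spock2 (r = 0.946) and Cntnap2 (r = 0.925), those closest to Braf were Ncoa1 (0.944) and Gse1 (0.934), and those closest to Bax were Arpc2 (0.958) and Vcp (0.950). Bad was closest to Pkig (0.959) and Tsen34 (0.944), Foxo1 to Phf20l1 (0.903) and Smpdl3a (0.897), Foxo3 to Asb7 (0.835) and Ints8 (0.807), and Tsc2 to Akr1b10 (0.831) and Tmem175 (0.808). Yap1 and Wwtr1, with under 30 UMIs in the β cells of a library, were not assessed in this way. Between the other 7 members, r over the same sums was highest for Braf with Mlxipl (0.64) and lowest for Bax with Mlxipl (−0.79).

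Lists of genes that act beside the partners were counted in β cells in the same fit. Of the 7 genes of the 14-3-3 family, 6 were tested and 1 fell, Ywhaz, and Ywhah, with the next lowest p, was at 0.10 (adjusted p = 0.948, edgeR). Among 24 other known 14-3-3 partners, 15 were tested and none was called. Their median log2 fold change was −0.019. The lowest p values there were those of Hdac5, a histone deacetylase that 14-3-3 holds in the cytosol (−0.35, unadjusted p = 0.044), and of the mTORC1 inhibitor Akt1s1 (−0.18, unadjusted p = 0.0507), both with an adjusted p of 0.941 in edgeR.

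None of the following lists held a called gene in β cells. The BCL-2 family had 5 of 11 genes tested and a median of 0.012, with Bcl2l2 at −0.082 and Mcl1 at 0.16, both survival members. FOXO targets had 6 of 9 tested and a median of −0.068, with Sesn3 at 0.14 and the insulin receptor substrate Irs2 at −0.30. The RAF-MEK-ERK list had 6 of 11 tested and a median of 0.017, with the MEK gene Map2k2 at 0.16. YAP and TAZ partners and targets had 5 of 17 tested and a median of −0.017, with the Hippo kinases Lats1 at −0.12 and Stk4 at 0.041. The TSC and mTORC1 list had 9 of 11 tested and a median of −0.080, with Akt1s1 as above and the S6 kinase gene Rps6kb1 at −0.11. ChREBP partners and targets had 5 of 9 tested and a median of 0.043, with Mlxip, the paralog of Mlxipl, at 0.075 and the fatty acid synthase gene Fasn at 0.061. The lowest adjusted p over these lists was 0.941, and the medians stood beside 0.0042 over all genes tested.

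**Figure D5:**
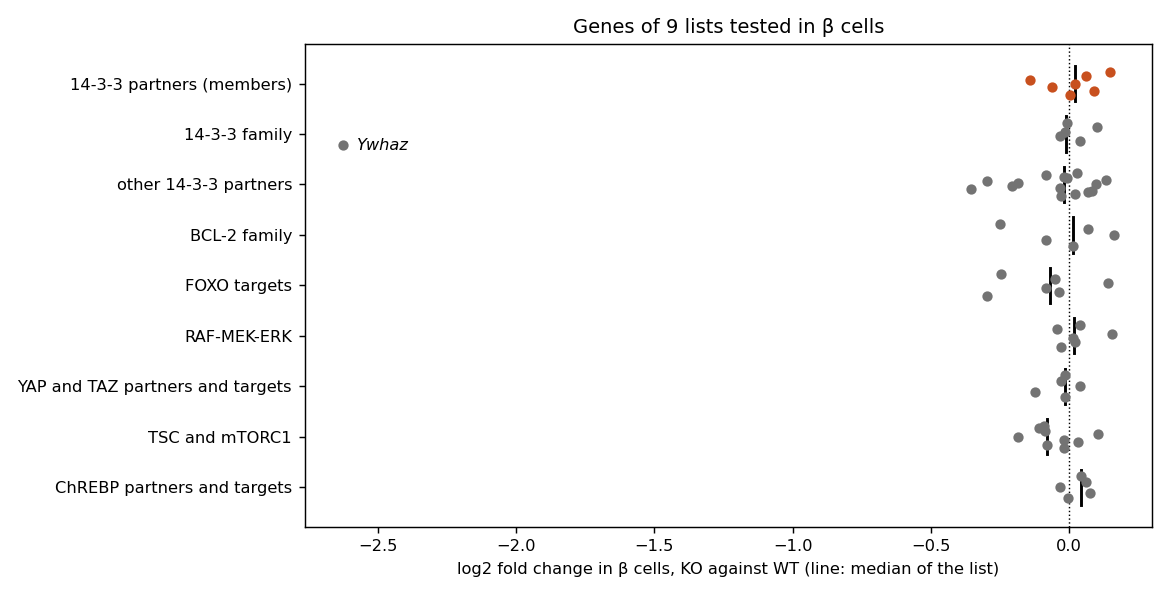
Log2 fold change in β cells, KO against WT (linear axis), of each gene tested in the partner list (orange) and in 8 lists of related genes (gray), with the median of each list as a line. All genes but Ywhaz lie between −0.35 and 0.16.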

How the data were processed

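UMI counts of 6 islet libraries (WT and KO, 3 each) were analyzed. The authors used the 10x Genomics 3′ chemistry (v3.1), sequenced on a NovaSeq6000, and, per the submitters' processing notes, used Cell Ranger 6.0.2, Seurat, and the build mm10. They deposited raw UMI counts per gene and barcode, without normalization. GENCODE vM21 (GRCm38) held 32158 of the 32285 gene identifiers, and promoter sequences are from RefSeq (GRCm38.p6).

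The libraries held 74083947 to 98294915 UMIs in 43445 barcodes. Barcodes with under 500 genes, with over 10% mitochondrial UMIs, or called as doublets (Scrublet) were left out, and 25207 cells were kept. Cells were clustered in scanpy 1.11.5 (2000 variable genes without the members and listed genes, 30 principal components, 15 neighbors, Leiden resolution 1), and clusters were named from at least 3 markers. Counts were summed per library and class and compared with edgeR 4.0.16 (quasi-likelihood, TMM, Benjamini-Hochberg) in R 4.3.3. WT and KO were compared without covariates and classes with the library as a block, and calls required an FDR under 0.05 with a log2 fold change beyond 0.1 (genotypes) or 1 (classes) in size. Interactions were fitted with limma 3.58.1, and DESeq2 1.42.0 was an alternative. Shares of cells were compared by exact permutation after thinning. The scripts were tested on simulated counts. The alternatives were other filters, normalizations, cell cutoffs, and insulin limits, and each library left out in turn.

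Libraries carry replicate numbers in both genotypes. Deviations from the genotype means correlated between libraries of the same number (r = 0.459, 0.530, and 0.440) and less between libraries of different numbers (−0.533 to 0.0278), so a fit with the number as a block was run beside each comparison of genotypes. The origin of this pairing is not given in the sources used here. The partner genes and gene lists were chosen with earlier results of these data known. Named genes are the partners, the 14-3-3 family, of each list the 2 genes with the lowest p in β cells, the cell type markers, and the 2 genes most like each partner; 1 gene that this rule names is not reported here.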

Additional observations from a re-analysis of the deposited data

Results flagged for a closer look

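The effect of genotype on Ywhaz differed between β cells and each other class by the interaction test in limma-voom. The KO against WT log2 fold change was higher by 2.48 in α cell–like, by 2.68 in δ cell–like, by 2.47 in endothelial cell–like, and by 2.55 in stellate cell–like cells than in β cells. No partner gene had a difference of this kind.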

How the results depend on the processing

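No partner gene was called between genotypes in β cells under any alternative run, and Ywhaz was lost as a call at an insulin limit of 15% (−2.23), where 0 genes were called. DESeq2 called 7 genes in β cells and 1 in endothelial cell–like cells. In the fit with a replicate block, 1 gene was called in α cell–like and 13 in endothelial cell–like cells, none a member, and the block changed no other call. With more genes tested, filterByExpr called 2919, 2887, 7435, and 6262 genes in α cell–like, δ cell–like, endothelial cell–like, and stellate cell–like cells against β cells, with 2, 1, 5, and 5 of 9 members. Leaving out 1 library moved the genes called to 0 to 1 in α cell–like and 0 to 2 in δ cell–like cells and the interaction calls of stellate cell–like cells to 0 to 1.

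Estimates near 0 changed sign in β cells for Bax without KO cells holding a Ywhaz UMI (−0.0041) or in clusters named β (−0.0019), and for Foxo1 in those clusters (−0.024), at 5000 UMIs or more (−0.0046), without doublet calls (−0.0057), and at 20% mitochondrial UMIs (−0.0062). Foxo3 changed sign in α cell–like (−0.019, filterByExpr) and stellate cell–like cells (0.051, clusters named β) against β cells. With 1 library left out, the ranges in β cells were −0.084 to 0.16 for Bax, −0.060 to 0.049 for Foxo1, −0.11 to 0.020 for Braf, and −0.028 to 0.24 for Mlxipl. For Foxo3 they were −0.043 to 0.071 in α cell–like against β cells and, between genotypes, −0.30 to 0.010 in δ cell–like, −0.14 to 0.11 in endothelial cell–like, and −0.65 to 0.17 in stellate cell–like cells. Wwtr1 ran from −0.10 to 0.039 in endothelial cell–like and from −0.12 to 0.37 in stellate cell–like cells, and Yap1 from −0.19 to 0.15 in endothelial cell–like cells. The cause of these changes was not tested. Yap1 and Wwtr1 had 93 and 167 UMIs in β cells, and the stellate cell–like sums came from 285 cells.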

Other observations

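Several cell sets outside the 5 classes also carried partner transcripts, and they are described here by levels alone, with no test. Ductal cell–like cells (165 cells, 5 libraries with at least 10 cells) held both Hippo coactivators, with Wwtr1 at 52.1 to 79.0 CPM and Yap1 at 30.3 to 41.3 CPM. An unnamed cluster of 269 cells, with Mgp, Igfbp5, and Pdgfrb among its leading genes and with 6 endothelial and 4 stellate markers above the limits used for naming, held Wwtr1 at 464 to 552 CPM and Yap1 at 30.2 to 43.5 CPM over 6 libraries. Immune cells held next to none: Yap1 had 0 UMIs of 6886538 in macrophage-like cells, 0 of 9639185 in T cell–like cells, and 1 of 15171328 in B cell–like cells. Wwtr1 had 7, 12, and 10 UMIs in the same order, with means of 0.923, 1.04, and 0.366 CPM. B cell–like cells held Foxo1 at 62.9 to 169 CPM, and T cell–like cells (5 libraries) at 63.9 to 118 CPM. The highest B cell–like value came from the 12 cells of KO library 1, and the next highest was 114 CPM in WT library 1. In macrophage-like cells Foxo1 was at 10.8 to 25.8 CPM and Bax at 276 to 371 CPM.

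Within the β class the partner genes differed between clusters. A cluster of 540 cells, in which insulin made up a median of 71.6% of UMIs, held Bad at 5.55 to 10.4 CPM, Foxo1 at 5.51 to 16.3 CPM, and Mlxipl at 15.8 to 42.1 CPM. The cluster with most UMIs (2856 cells, median 36.9% insulin) held Bad at 20.9 to 24.7 CPM, Foxo1 at 54.3 to 62.1 CPM, and Mlxipl at 116 to 169 CPM, with no overlap with the former in any of these genes. With insulin UMIs left out of the totals, Bad was at 18.3 to 33.8 CPM in the former and at 33.7 to 40.0 CPM in the latter, which then overlapped, Foxo1 at 19.3 to 55.3 and 87.5 to 102 CPM, and Mlxipl at 61.6 to 135 and 192 to 271 CPM. A cluster of 677 shallow barcodes (median 2534 UMIs and 22.6% insulin), of which 44.3% fell in the β class, had the nuclear RNAs Meg3, Kcnq1ot1, and Malat1 among its leading genes and held Mlxipl at 189 to 303 CPM.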
